A study of Mus musculus with 2 samples.

Results

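The clustered histone genes were the genes whose listed symbol begins with Hist1h, Hist2h, Hist3h or Hist4h, and 68 of the 25810 genes listed with a symbol met this rule. They were divided by the letters that follow into 6 genes of the linker histone H1 and 19 genes of H2A, 19 of H2B, 12 of H3 and 12 of H4, the core histones. By the locus in the symbol, 54 belonged to Hist1 on chromosome 13, 10 to Hist2 on chromosome 3, 3 to Hist3 on chromosome 11 and 1 to Hist4 on chromosome 6, and 2 of the 68 (*Hist2h3c2-ps* and *Hist3h2bb-ps*) carry a pseudogene suffix in the files. Their reads were compared between 1 RNA-Seq library of wild-type (WT) and 1 library of *Igfbp7-/-* mammary epithelial cells (MECs), both taken from inguinal glands on lactation day 3. The *Igfbp7-/-* mice carry a germline deletion of the exon that begins the coding sequence of *Igfbp7*, and the labels name no allele or agent common to both genotypes. The sample labels give the background as C57BL/6, whereas the study's methods describe mice on a CD1 background. The cells of both libraries had been depleted of lineage positive cells (CD45, Ter119 and CD31, for which the labels write CD35) with magnetic beads, and the RNA had passed 2 rounds of poly(A) selection. The number of mice behind each library was not given in the sources used here, and without replicates no difference between the genotypes could be tested.

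Clustered histone genes supply most of the histone protein that packs newly copied DNA, and their transcription is tied to the phase of the cell cycle in which DNA is replicated. H2A, H2B, H3 and H4 form the protein core around which DNA is wound, and H1 binds the DNA between these cores. Unlike other messenger RNAs, the replication-dependent histone transcripts end in a short stem-loop, bound by the stem-loop binding protein *Slbp*, and usually carry no poly(A) tail. Some of these genes can also use a poly(A) site further downstream, which gives a longer transcript that poly(A) selection retains.

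The stem-loop was searched for as GG, any 2 bases, CTTTT, any base, AG, any 2 bases and CC, read without gaps in the 100 bases after the stop codon, in the mouse build NCBIM37 (mm9) with the GENCODE annotation of that build. Of the 66 members with an annotated coding sequence, 60 (90.9%) held it on the sense strand and 0 on the other strand. It was present in 1.29% of all 4719 protein coding genes on the same chromosomes (3, 6, 11 and 13), and the single match among the 4653 genes that were no members was in *Hist1h4n*, a histone gene by its symbol that the files do not list under that name. The median distance from the stop codon to the stem-loop was 30 bases, with a range of 21 to 58. The sequences below are shown because they carry the label of the group and because the H4 forms differ from those of the other classes. They are 30 bases long, written 5′ to 3′ on the strand of the gene, with the 16 bases of the stem-loop in capitals.
Hist1h1c (H1, chr13:23831374-23831403, plus strand): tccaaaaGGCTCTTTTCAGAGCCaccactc
Hist1h1d (H1, chr13:23647649-23647678, plus strand): ctcaaacGGCTCTTTTCAGAGCCacccaca
Hist3h2a (H2A, chr11:58768667-58768696, plus strand): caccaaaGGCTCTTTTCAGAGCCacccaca
Hist2h2ac (H2A, chr3:96024334-96024363, minus strand): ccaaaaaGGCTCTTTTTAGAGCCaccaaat
Hist1h2bc (H2B, chr13:23776509-23776538, plus strand): ttccaaaGGCTCTTTTCAGAGCCacccact
Hist1h2bb (H2B, chr13:23839065-23839094, plus strand): acccaaaGGCTCTTTTAAGAGCCacccaca
Hist1h4d (H4, chr13:23673812-23673841, plus strand): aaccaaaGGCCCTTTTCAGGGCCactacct
Hist1h4i (H4, chr13:22132828-22132857, minus strand): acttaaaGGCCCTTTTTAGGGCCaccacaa
Hist1h4j (H4, chr13:21827299-21827328, plus strand): ccctaaaGGTCCTTTTCAGGACCaccacat
The form of *Hist1h1c*, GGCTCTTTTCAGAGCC, was found in 39 members of the H1, H2A, H2B and H3 classes. The form of *Hist1h2bb*, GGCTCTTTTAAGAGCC, was found in 9 members of these 4 classes, and that of *Hist2h2ac* in 1 member. All 11 H4 genes with a match had other stems: 7 had the form of *Hist1h4d*, 2 that of *Hist1h4i* (shared with *Hist2h4*) and 2 that of *Hist1h4j* (shared with *Hist1h4b*). No match was found for *Hist1h2al*, *Hist1h2an*, *Hist1h3g*, *Hist1h4a*, *Hist2h2bb* and *Hist2h2be*, which says only that these letters were not in the 100 bases searched.

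Promoters from 250 bases before to 50 bases after the start were matched to RefSeq by symbol or synonym for 60 members (61 promoters, table of GRCm38.p6). CCAAT, searched on both strands, was in 53 of the 61 (86.9%) and in 37.4% of all 32851 promoters of the table. TATAAA, searched the same way and counted whether or not it overlapped CCAAT, was in 34 (55.7%) and in 13.6% of all promoters. Members that stand head to head with starts 168 to 306 bases apart share part of these windows. One element can thus count for both genes, and the 61 promoters are not all separate sequences. CCAAT boxes and TATA boxes are short elements known from the promoters of replication-dependent histone genes, and a match here is a description of the sequence.

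The 2 libraries had 34327854 (WT) and 35016847 (*Igfbp7-/-*) mapped reads, the totals by which the authors divided their counts to give RPM values, and 28262015 and 25306845 of these lay on listed genes. The deleted gene, *Igfbp7*, was read 5224 times in WT (152.2 RPM) and 37 times in *Igfbp7-/-* (1.06 RPM), and its log2 ratio was -7.04 (95% counting interval -7.92 to -6.52). One read was worth 0.0291 and 0.0286 RPM. With reads counted singly, a count of 0 allows a level of up to 0.0874 RPM (WT) or 0.0857 RPM (*Igfbp7-/-*), the worth of 3 reads. With reads counted in pairs, as for the intervals below, this limit would be higher. A gene was counted as different at 1.5 times or more on RPM + 0.1, where either library held 1 RPM or more of it, about 34 to 35 reads. The intervals are 95% Clopper-Pearson intervals on read pairs, without the added 0.1 RPM. They cover counting error only, since reads without molecular identifiers are not independent molecules and the spread between animals was not measured.

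Most clustered histone genes were close to the limit of detection in both genotypes. Reads were found on 53 of the 68 genes in WT and on 50 in *Igfbp7-/-*, 12 genes had 0 reads in both libraries, and 47 had fewer than 10 reads in each. The 12 without reads were *Hist1h2aa*, *Hist1h2ae*, *Hist1h2ak*, *Hist1h2an*, *Hist1h2ap*, *Hist1h2ba*, *Hist1h2bl*, *Hist1h3c*, *Hist1h3e*, *Hist1h4k*, *Hist2h2ab* and *Hist2h4*. A further 9 genes were read in 1 library only, with at most 9 reads. For comparison, of all 25810 genes listed with a symbol, 19160 were read in WT, 18910 in *Igfbp7-/-* and 5659 in neither. All 68 genes together had 2222 reads in WT and 2105 in *Igfbp7-/-*, or 64.7 and 60.1 RPM, and the log2 ratio of these sums was -0.11 (-0.23 to 0.016). The interval includes 0 but covers counting error only. With counts scaled to the reads on listed genes the log2 ratio of the sums was 0.081, so its sign depends on the scaling. For comparison, the replacement histone gene *H3f3b*, which makes H3 outside DNA replication from an ordinary polyadenylated transcript, alone stood at 281.7 RPM in WT and at 275.5 RPM in *Igfbp7-/-*.

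**Figure D1:**
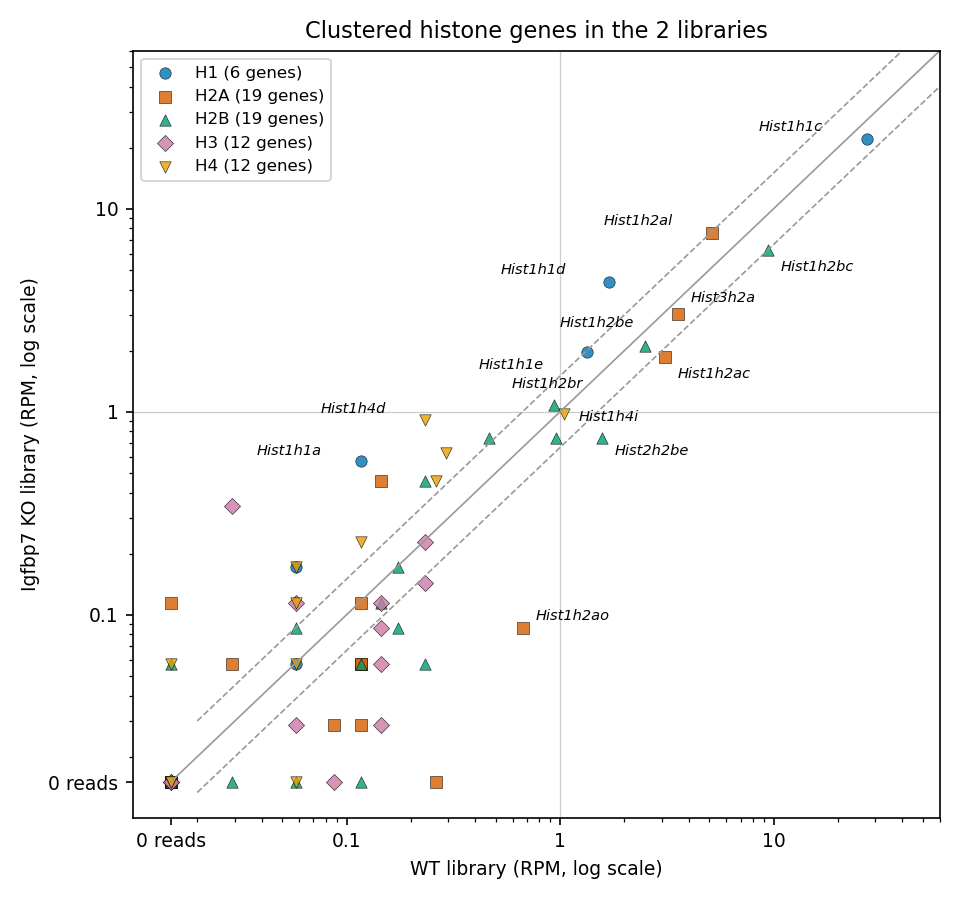
Each point is 1 of the 68 clustered histone genes, with its RPM in the WT library on the x axis and in the *Igfbp7-/-* library on the y axis (log scales, with genes at 0 reads drawn at the marked end); the solid line marks equal values, the dashed lines 1.5 times and the grey lines 1 RPM. Of the genes with at least 1 RPM, *Hist1h1d* lies above the dashed lines, *Hist1h2ac* and *Hist2h2be* lie below them and *Hist1h2bc* lies just below, since nothing is added to the RPM here, and the spread widens among the 57 genes below 1 RPM.

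Only 11 of the 68 genes reached 1 RPM in a library, and they held 1979 of the members' reads in WT and 1820 in *Igfbp7-/-*. Of these 11, 1 was higher in *Igfbp7-/-* at this threshold (9.09%) and 2 were lower (18.2%). Among all 14026 genes that passed the same minimum, 21.4% were higher and 23.0% lower. The median log2 ratio of the 11 was -0.22, against 0.035 over all 14026 genes. By value alone 7 were lower and 4 higher, and the counting interval left out 0 for 6 and included it for 5. The counts depend on the scaling: with counts scaled to the reads on listed genes, 5 of 14 histone genes past the minimum were higher and 1 was lower, while 30.6% of all genes were higher and 18.6% lower. That scaling moved the median of all genes from 0.035 to 0.224 and that of the histone genes from -0.22 to 0.014. The histone median was thus below the median of all genes under both. With RPM, the quartiles of the 11 genes were -0.45 and 0.36, on either side of the median of all genes.

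Among the H1 genes, reads lay mainly on *Hist1h1c*, whose values were lower in *Igfbp7-/-*, while those of *Hist1h1d* and *Hist1h1e* were higher. *Hist1h1c* (chromosome 13, 23830676 to 23832235, 1 exon) had 939 reads in WT and 772 in *Igfbp7-/-*, or 27.4 and 22.0 RPM, the most of any clustered histone gene in both libraries. It took 42.3% of the members' reads in WT and 36.7% in *Igfbp7-/-*. Its log2 ratio of -0.31 (-0.51 to -0.11) was short of 1.5 times. *Hist1h1d* (chromosome 13, 23646901 to 23650721, 1 exon) had 58 reads in WT and 152 in *Igfbp7-/-*, or 1.69 and 4.34 RPM. With a log2 ratio of 1.31 (0.73 to 2.03) it was the only clustered histone gene past 1 RPM that was higher by at least 1.5 times. *Hist1h1e*, the remaining H1 gene past the minimum, had 46 and 69 reads (log2 ratio 0.52, -0.25 to 1.38). Below 1 RPM, *Hist1h1a* had 4 and 20 reads (1.63, 0.063 to 5.52) and *Hist1h1b* had 2 and 6, while *Hist1h1t*, a form of the testis, had 2 in each library. The 6 H1 genes summed to 1051 reads in WT and 1021 in *Igfbp7-/-* (-0.070, -0.25 to 0.11). Without *Hist1h1c* the sums were 112 and 249 reads, 3.26 and 7.11 RPM, and the log2 ratio was 1.12 (0.66 to 1.61). The near equality of the H1 sum thus rested on *Hist1h1c*.

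H2A and H2B pair with each other within the core, and many of their genes stand head to head on opposite strands. The H2A genes summed to 462 reads in WT and 471 in *Igfbp7-/-*, or 13.5 RPM in each library (log2 ratio -0.00084, -0.27 to 0.27). *Hist1h2al*, which RefSeq names H2af-ps2 and holds as a pseudogene, had the most, with 177 and 265 reads or 5.16 and 7.57 RPM (0.54, 0.15 to 0.96). This gene lies apart from the other genes of its locus, at position 51298057 to 51298434 of chromosome 13, while the other 53 lie between 21807632 and 24026720. The authors' length for it was 3480 bases and the GENCODE transcript has 378, so the counted interval was not the annotated transcript alone. Without it the remaining H2A genes had 285 and 206 reads (-0.50, -0.88 to -0.12), so the equal H2A sums rested on *Hist1h2al*. *Hist3h2a* (chromosome 11, 58768187 to 58770176) had 122 and 106 reads, or 3.55 and 3.03 RPM (-0.22, -0.79 to 0.32). Its exon overlaps *Trim17* on the same strand, and reads from the shared bases cannot be told apart. *Hist1h2ac* (chromosome 13, 23773336 to 23775817, 1 exon) had 106 reads in WT and 65 in *Igfbp7-/-*, or 3.09 and 1.86 RPM, a log2 ratio of -0.70 (-1.41 to -0.077), and was counted as lower. It was no longer counted with 1 RPM added (-0.52) or with counts scaled to listed genes (-0.53). It overlaps a 5S ribosomal RNA entry on the same strand.

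The H2B genes summed to 590 reads in WT and 447 in *Igfbp7-/-*, or 17.2 and 12.8 RPM, with a log2 ratio of -0.43 (-0.69 to -0.17). *Hist1h2bc* (chromosome 13, 23776068 to 23784357, 2 exons) led this class with 323 and 219 reads, or 9.41 and 6.25 RPM. Its log2 ratio of -0.58 (-0.95 to -0.23) stood just inside 1.5 times, and it was counted as lower when the added RPM was reduced to 0.01. *Hist2h2be* (chromosome 3, 96025044 to 96027661, 1 exon) had 54 reads in WT and 26 in *Igfbp7-/-*, or 1.57 and 0.74 RPM, a log2 ratio of -0.99 (-2.16 to -0.079), and was counted as lower, though not with 1 RPM added (-0.56). Its interval nearly reaches 0, as does that of *Hist1h2ac*. *Hist1h2be* had 86 and 74 reads, or 2.51 and 2.11 RPM (-0.24, -0.92 to 0.42), and overlaps *Gm11398* on the same strand. *Hist1h2br* had 32 and 38 reads (0.20, -0.82 to 1.28). *Hist2h2bb*, with 33 and 26 reads, was the gene nearest to the minimum from below, at 0.96 RPM in WT.

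**Figure D2:**
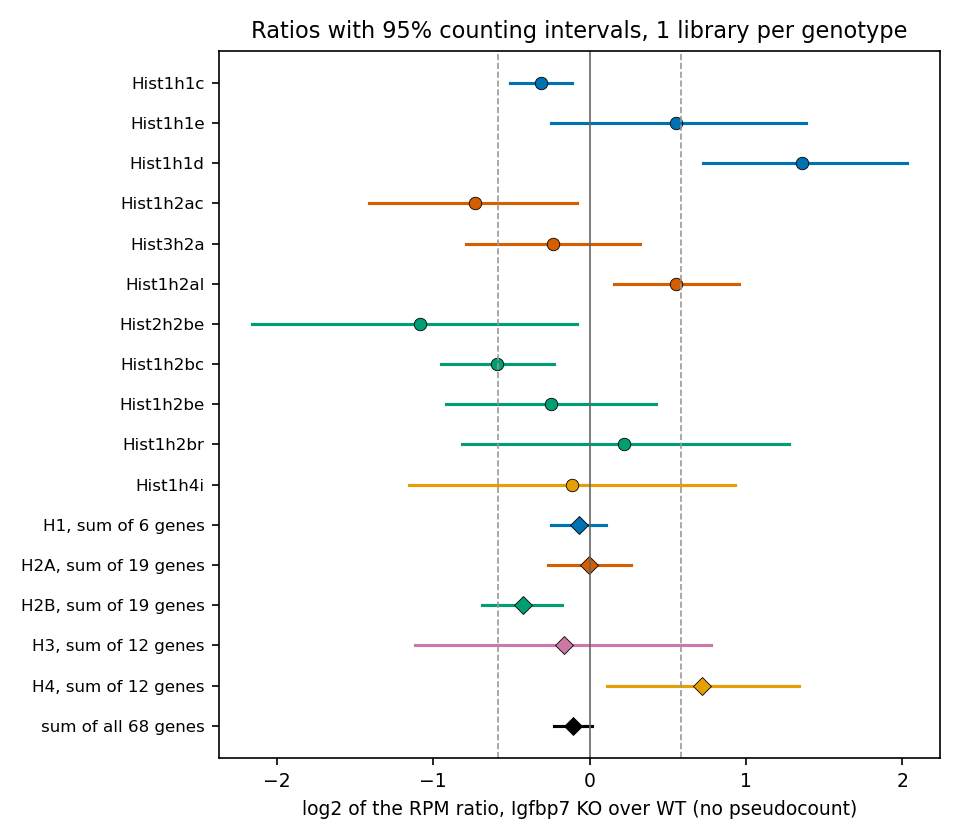
Points are log2 ratios of *Igfbp7-/-* to WT from reads scaled to the library totals, with nothing added to the RPM: circles are the 11 genes past the minimum and diamonds the sums of each class and of all 68 genes; lines are 95% counting intervals and dashed lines 1.5 times. The intervals of *Hist1h1d*, *Hist1h2al* and the H4 sum lie above 0, those of *Hist1h1c*, *Hist1h2bc*, *Hist1h2ac*, *Hist2h2be* and the H2B sum lie below 0, and the others include it.

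Pairs of members with start sites at most 1000 bases apart and transcribed away from each other were counted from the GENCODE positions. There were 14 such pairs, of which 13 joined an H2A to an H2B gene with 168 to 306 bases between the starts. In 1 of the 13 pairs both genes reached 1 RPM, in 3 a single gene did, and in 9 neither did. The pair with both was *Hist1h2ac* and *Hist1h2bc*, 251 bases apart, and both had lower values in *Igfbp7-/-* (106 to 65 reads and 323 to 219 reads). In the other 3, the reads stood on 1 side: *Hist2h2be* had 54 and 26 reads against 0 and 4 for *Hist2h2ac*, *Hist3h2a* had 122 and 106 against 0 and 2 for *Hist3h2bb-ps*, and *Hist1h2br* had 32 and 38 against 0 in both libraries for *Hist1h2ap*. In the last pair, 100% of the 75-base transcript windows of *Hist1h2ap* and 96.6% of those of *Hist1h2br* also occur in other genes, so where its reads lie depends on how shared reads were placed. *Hist1h2ao* and *Hist1h2bq*, 168 bases apart, had 23 and 3 reads and 2 and 0 reads. The log2 ratio of *Hist1h2ao* was -2.05 (-6.91 to -0.56) at under 1 RPM, and every 75-base window of its transcript also occurs in the transcript of another gene.

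H3 and H4, which form the inner part of the core, had the fewest reads. No H3 gene reached 1 RPM. The 12 H3 genes summed to 44 reads in WT and 40 in *Igfbp7-/-* (1.28 and 1.14 RPM), a log2 ratio of -0.17 (-1.12 to 0.78) whose interval spans changes of 1.5 times either way. The 2 with the highest mean RPM were *Hist1h3f*, with 8 reads in each library, and *Hist1h3a*, with 8 and 5. No H3 member had more than 12 reads in a library, the count of *Hist2h3c2-ps* in *Igfbp7-/-*, which had 1 read in WT.

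H4 was the class whose sum was higher in *Igfbp7-/-*. The 12 H4 genes had 75 reads in WT and 126 in *Igfbp7-/-*, or 2.18 and 3.60 RPM, a log2 ratio of 0.72 (0.11 to 1.34) or 1.65 times. *Hist1h4i* (chromosome 13, 22132685 to 22133221), the single H4 gene past the minimum, had 36 and 34 reads, or 1.05 and 0.97 RPM (-0.10, -1.16 to 0.93). The higher sum lay in the 11 genes below 1 RPM, with 39 reads in WT and 92 in *Igfbp7-/-* (1.21, 0.42 to 2.05). *Hist1h4d* had 8 and 32 reads, or 0.23 and 0.91 RPM (1.61, 0.34 to 4.01), *Hist1h4h* had 10 and 22, and *Hist1h4j* had 9 and 16. Of the 10 H4 genes with any read, 7 had more in *Igfbp7-/-*, 2 had fewer and 1 had the same number. H4 genes share much of their coding sequence, so a read may match more than 1 of them. If each read was counted once, the sum depends less on its placement than single genes do. A read counted on more than 1 gene would enter the sum more than once, and which was done was not given. The H4 sum stayed higher and the H2B sum lower in *Igfbp7-/-* under both other scalings (0.77 and 0.91 for H4, -0.38 and -0.24 for H2B), whereas the sums of H1, H2A, H3 and all members turned positive with counts scaled to listed genes (0.12, 0.19, 0.022 and 0.081).

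Over all classes, the 57 genes below 1 RPM had 243 and 285 reads (0.20, -0.16 to 0.56), at most 33 each in a library, and the interval left out 0 for 3 of them: *Hist1h4d*, *Hist1h1a* and *Hist1h2ao*.

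Per length the order of the genes changed. In RPKM, the RPM divided by a length in kilobases chosen by the authors, *Hist1h1c* remained the highest with 17.3 in WT and 14.0 in *Igfbp7-/-*, followed by *Hist1h2bc* with 12.9 and 8.59. These were the only clustered histone genes above 3 RPKM. *Hist1h4i* had 1.87 and 1.73 RPKM, *Hist3h2a* 1.79 and 1.52, and *Hist1h2al* 1.48 and 2.17. *Hist1h4i* and *Hist3h2a*, neighbours in this order, differed by less than the counting error of the 36 WT reads of *Hist1h4i*. The lowest of the 11 was *Hist1h2br* in WT, with 0.44 RPKM there and 0.51 in *Igfbp7-/-*, and *Hist2h2be* in *Igfbp7-/-*, with 0.60 RPKM in WT and 0.28 in *Igfbp7-/-*.

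**Figure D3:**
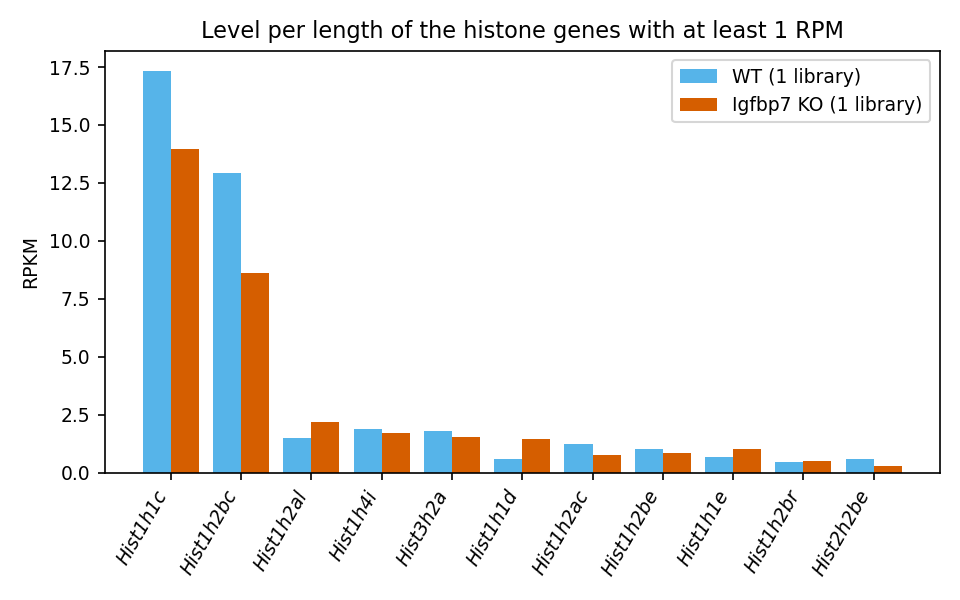
Bars give the RPKM of the 11 clustered histone genes with at least 1 RPM in a library, 1 bar per library and so with no error bar, from the highest to the lowest level. *Hist1h1c* (17.3 and 14.0) and *Hist1h2bc* (12.9 and 8.59) stand above the other 9, and the WT bar is the higher one for both.

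The genes past 1 RPM were mostly those with a long gene model. Of the 12 members with an authors' length of at least 1000 bases, 9 reached 1 RPM, and of the 44 with a shorter length 2 did, *Hist1h2bc* with 728 bases and *Hist1h4i* with 562. The 12 genes without reads have no RPKM and so no length. A longer gene collects more reads at the same level. Per length, the median of the mean RPKM was 0.889 in the long and 0.224 in the short group, both without the 12 unread genes, and the part of gene length in which genes passed 1 RPM was not tested. The GENCODE transcripts gave a like picture. Of the 13 members whose annotated transcript ran more than 300 bases past the stem-loop, 7 reached 1 RPM, compared with 2 of the 47 whose transcript ended sooner and 2 of the 6 with no stem-loop match (*Hist1h2al* and *Hist2h2be*). The transcript of *Hist1h1d* ran 3050 bases past its stem-loop, that of *Hist1h2ac* 2010, *Hist1h2br* 1803, *Hist1h2be* 1789, *Hist3h2a* 1487, *Hist1h1c* 839 and *Hist1h2bc* 313. The poly(A) selection of these libraries retains tailed RNA, and how much each gene's tailed and untailed forms contributed was not tested.

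**Figure D4:**
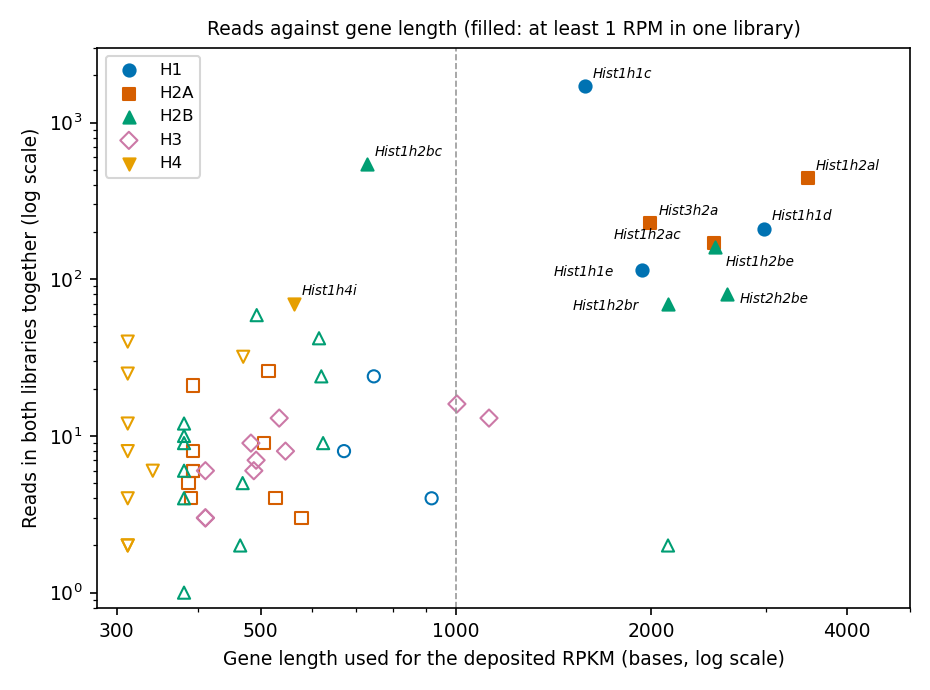
The x axis gives the length the authors used for RPKM and the y axis the reads of both libraries together, both on log scales, for the 56 members with a read; filled symbols are the 11 genes with at least 1 RPM and the dashed line marks 1000 bases. Of the 12 genes right of the line 9 are filled, and of the 44 left of it 2 are.

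Near-identical copies limit what single genes can show. Over the 66 members with a coding sequence, a median of 67.0% of the 75-base windows of the coding sequence (the longer read of each pair) also occurred in the transcript of another gene, 47 members shared at least 50% and 10 shared all. The class medians were 83.4% for H2A, 67.1% for H3, 67.0% for H2B, 61.8% for H4 and 8.76% for H1. Over the whole transcripts of the 11 genes past the minimum the median was 15.6%, with 2 at 50% or more, *Hist1h2br* (96.6%) and *Hist1h2al* (52.6%). For *Hist1h1c* it was 6.66%, for *Hist1h1d* 2.88%, for *Hist1h2ac* 9.68% and for *Hist2h2be* 0%. These windows were exact matches to protein coding transcripts, while the authors allowed up to 3 mismatches and the shorter read had 35 bases. With 35-base windows the values were 10.7% for *Hist1h1c*, 5.57% for *Hist1h1d* and 12.8% for *Hist1h2ac*. *Hist2h2be* shared 35-base windows with other H2B genes, so 0% does not mean that none of its reads could be shared. How the authors placed reads with several equal matches was not given in the sources used here.

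Other genes of the histone pathway were read from fixed lists. Of 11 genes listed as replacement histones, 10 passed the minimum, with 1 higher and 5 lower by at least 1.5 times. Their median log2 ratio was -0.51. Among all 14026 genes past the minimum 21.4% were higher and 23.0% lower. *H2afz*, which makes the H2A variant placed at promoters, had 1183 and 402 reads, or 34.5 and 11.5 RPM, with a log2 ratio of -1.58 (-1.82 to -1.35). *H1f0*, the linker histone of resting and differentiated cells, had 53.3 and 41.8 RPM (-0.35, -0.49 to -0.21), and *H2afy*, or macroH2A, 43.8 and 37.6 RPM (-0.22, -0.38 to -0.07). Of 14 genes of histone transcript synthesis and 3′ end processing, all passed, with 1 higher, 2 lower and a median of 0.036. *Upf1*, a helicase that takes part in histone transcript decay, had 40.0 and 61.7 RPM (0.62, 0.49 to 0.77), *Npat*, an activator of histone gene transcription, 23.0 and 32.4 RPM (0.49), and *Casp8ap2*, a component of the same nuclear bodies, 14.0 and 17.8 RPM (0.35). *Slbp* itself had 10.5 and 9.25 RPM (-0.17). Of 12 genes of histone chaperones and of the acetylation of new histones, 2 were higher and 5 lower, with a median of -0.27. *Asf1b* (76 and 2 reads, -3.88), *Chaf1a* (171 and 39, -2.07) and *Chaf1b* (116 and 30, -1.86) were lower at under 10 RPM. *Hira* was higher (546 and 894 reads, 0.68). *Daxx*, which helps to place the H3 variant of *H3f3b*, had 74.9 and 23.7 RPM (-1.66), *Cabin1*, a partner of the chaperone *Hira*, 18.5 and 35.4 RPM (0.93), and *Hat1*, the enzyme that acetylates new H4, 12.2 and 7.14 RPM (-0.77).

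DNA replication genes, whose transcripts are made in the same phase of the cell cycle as histone transcripts, were mostly lower in *Igfbp7-/-*. Of 25 listed, 23 passed the minimum, 19 were lower in *Igfbp7-/-* by at least 1.5 times and 1 was higher. Among all 14026 genes past the minimum, 23.0% were lower and 21.4% higher. The median log2 ratio of the 23 was -1.14, where the 11 histone genes had a median of -0.22 with 2 lower. *Rrm2*, a subunit of ribonucleotide reductase, had 707 and 103 reads, or 20.6 and 2.94 RPM, with a log2 ratio of -2.77 (-3.26 to -2.38). *Mcm5*, of the replicative helicase, had 11.9 and 2.63 RPM (-2.14), and *Cdt1*, which loads that helicase, 11.6 and 3.31 RPM (-1.78). Summed over the list, the level was 212.7 RPM in WT against 103.6 RPM in *Igfbp7-/-*, and over the clustered histone genes it was 64.7 against 60.1 RPM. In bulk samples, fewer cells of a type and less RNA per cell cannot be told apart. The difference between the lists has no test, since each genotype had 1 library. Poly(A) selection also samples the lists unlike, because replication-dependent histone transcripts usually carry no tail. Of the 11 histone genes, 9 had an authors' length of at least 1000 bases. Whether histone transcripts without a tail changed along with the DNA replication genes was not tested.

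**Figure D5:**
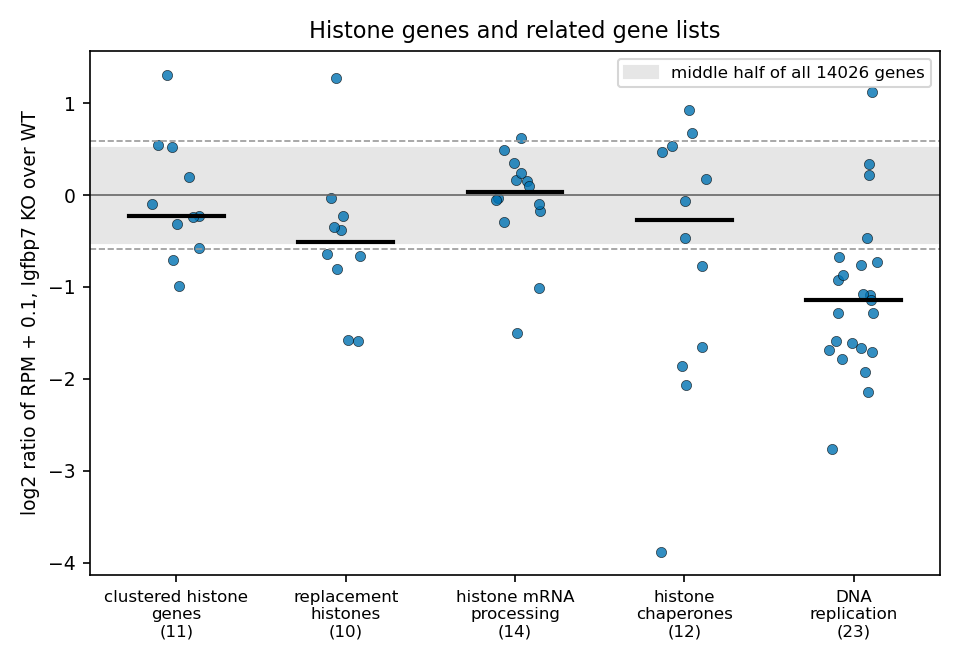
Each point is the log2 ratio of RPM + 0.1, *Igfbp7-/-* over WT, of 1 gene with at least 1 RPM in a library; black bars are list medians, the grey band spans the quartiles of all 14026 genes (-0.52 to 0.51) and dashed lines mark 1.5 times. The medians are -0.22 for the 11 clustered histone genes, -0.51 for replacement histones, 0.036 for histone transcript processing, -0.27 for chaperones and -1.14 for the 23 DNA replication genes.

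Genes of RNAs without a poly(A) tail had reads in both libraries. On 4 ribosomal RNA rows, chosen after their values were seen, and although the methods state that ribosomal RNA was filtered out, the WT sum was 29517 RPM and the *Igfbp7-/-* sum 31458 RPM. Of 131 genes listed by their symbols as other RNAs without a tail, 69 passed the minimum, with 19 higher, 16 lower and a median log2 ratio of 0.047. They summed to 4124 and 6154 RPM, of which *Malat1* made 3749 and 5731 RPM. Among those with at least 10 RPM the ratios furthest from 0 were those of *Snord118* (3.15 and 37.7 RPM, log2 ratio 3.54), *Snord55* (13.2 and 3.77 RPM, -1.78) and *Snord49a* (32.5 and 63.7 RPM, 0.97). The list held genes with higher and with lower values in *Igfbp7-/-*, and the part of untailed RNA in the histone values was not tested.

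Markers of other cell types moved with genotype beside these values. At the same threshold, 21.4% of all 14026 genes past the minimum were higher and 23.0% lower. All 7 leukocyte markers were lower in *Igfbp7-/-* (summed level 186.3 RPM in WT, 72.5 RPM in *Igfbp7-/-*), as were 4 of 5 endothelial (1075 and 353.0 RPM), 4 of 5 myoepithelial (2876 and 941.3 RPM) and 2 of 4 fibroblast markers (3988 and 2547 RPM). Of 5 erythroid markers 3 passed the minimum and none differed by 1.5 times (888.9 and 997.6 RPM). Of 6 luminal and milk markers, which define the labelled tissue and were abundant in both libraries, 2 were higher and 3 lower, with *Krt18* at 250.4 and 1174 RPM and *Wap* at 13731 and 3866 RPM. The part of these cells in the histone values was not tested.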

How the data were processed

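MECs of lactation day 3, depleted of lineage positive cells, gave 1 poly(A) selected library per genotype, sequenced from both ends (35 and 75 bases) on a SOLiD instrument. By the methods, the authors removed reads of mitochondrial RNA, ribosomal RNA and snRNA and allowed at most 3 mismatches, but the files still list ribosomal RNA (29517 RPM in WT, 31458 RPM in *Igfbp7-/-*) and the small nuclear RNA Rnu2 (82 and 46 reads). The submitters' processing notes name Bowtie 0.12.3, SAMtools 0.1.15 and mm9, whereas the methods name a human reference, although the files list mouse genes. The gene annotation and the treatment of reads with several equal matches were not given in the sources used here. The authors deposited for each gene a read count without normalization, an RPM (the count scaled to all mapped reads of the library, on and off the listed genes) and an RPKM (the RPM divided by a length chosen by the authors). The length was recovered as RPM over RPKM. Rows were matched between the libraries by symbol, and 50 rows without a symbol were left out. The *Igfbp7-/-* library had more reads off the listed genes, which lowers its RPM values relative to a scaling on listed genes.

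Groups were taken from the sample labels. Ratios of *Igfbp7-/-* to WT were computed on RPM + 0.1 for genes that reached 1 RPM in either library, and called at 1.5 times. The added 0.1 RPM pulls the ratios of low genes towards 1. Low counts were mostly even (75.8% of WT and 74.1% of *Igfbp7-/-* genes with 1 to 20 reads, and 67.5% and 74.3% of the clustered histone genes), so each count was halved to read pairs before the Clopper-Pearson intervals were taken. The members, the lists and the rule for named genes were chosen with earlier results of these data known. Every member past 1 RPM is named, with its reads given, as are the 2 members of highest mean RPM in each class and, from other lists, up to 3 genes with at least 10 RPM and the largest ratio. Members below 1 RPM and *Slbp*, *H3f3b* and *Malat1* were otherwise named after their values were seen, as were the pairs of neighbouring genes. The same holds for *Asf1b*, *Chaf1a*, *Chaf1b*, *Hira*, *Rnu7* and *Snord123*. Positions and transcripts were from GENCODE on NCBIM37, and promoters from RefSeq on GRCm38.p6. The scripts were tested on simulated data. The alternatives were pseudocounts of 1 and 0.01 RPM, a minimum of 10 RPM in either library, of 1 RPM in both or none at all, 2 other scalings, RPKM, a threshold of 2, an interval criterion and sums without the leading member. Python 3.11.15 was used with numpy 2.4.6, pandas 2.3.3, scipy 1.17.1, pysam 0.24.0 and matplotlib 3.10.9.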

Additional observations from a re-analysis of the deposited data

How the results depend on the processing

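No paired analysis was possible because each genotype had 1 library, and for the same reason no replicate could be left out and no count model could be fitted with a spread between samples. The count of higher genes, 1 of 11, became 14 of 56 with no minimum (23.5% of all genes were higher under that setting), 0 with a minimum of 10 RPM (*Hist1h1c* alone passed), 5 of 14 with counts scaled to the reads on listed genes (30.6% of all genes) and 5 of 16 when the 20 genes of highest RPM were also left out of that scaling (24.4%). The count of lower genes, 2 of 11, became 0 with a pseudocount of 1 RPM (19.9% of all genes), 12 of 56 with no minimum (26.2%), 0 with a minimum of 10 RPM (20.4%, and 20.7% higher), 1 of 8 with 1 RPM required in both libraries (20.1%), 1 of 14 with counts scaled to listed genes (18.6%, without *Hist1h2ac*) and 0 with a threshold of 2 (13.8%). The log2 ratio of the sum over all members, -0.11, was 0.081 with counts scaled to listed genes and 0.026 without *Hist1h1c*. That of H1, -0.070, was 0.12 with counts scaled to listed genes and 1.12 without *Hist1h1c*, and that of H2A, -0.00084, was -0.50 without *Hist1h2al*. The H2B sum stayed between -0.43 and -0.24 and the H4 sum between 0.72 and 1.21 under the same alternatives. For the 11 named genes all 75 alternative values kept the direction or moved by less than their counting interval, with 1 change of sign (*Hist1h4i*, 0.071 with counts scaled to listed genes). Depth limits the 57 members below 1 RPM, whose intervals are wide, and the spread between animals was not measured.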
